A study of Mus musculus with 28 samples.

Results

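The phase II conjugation enzymes are the transferases that attach glucuronic acid, sulfate or glutathione to drugs, bile pigments, steroids and other small molecules. Members were taken by symbol: those beginning with Ugt1, Ugt2 or Ugt3 formed the glucuronidation group, those beginning with Sult the sulfation group, and those beginning with Gsta, Gstm, Gstp, Gstt, Gstk, Gsto or Gstz the glutathione group. The deposited table held 61 such genes among its 18182, namely 19 for glucuronidation, 20 for sulfation and 22 for glutathione. The study compared RNA from liver tumours (HCC, hepatocellular carcinoma) with RNA from the liver tissue beside them in mice whose genotype is labelled c-Myc/Alb-cre transgenic. All 28 libraries carry that genotype, the peritumour ones included, so that no library came from a liver without it; Alb-cre places the Cre recombinase under the promoter of albumin, a gene of hepatocytes. Labels name 4 groups: 11 tumour libraries Tu_F, 11 peritumour libraries Pe_F, 3 tumour libraries Tu_M and 3 peritumour libraries Pe_M. The letters F and M are not expanded in the labels, and strain, age and treatment are not given in the sources used here. A code in each title ties 1 tumour library to 1 peritumour library, giving 14 pairs, F1 to F11 and M1 to M3; the code was taken as the animal, which the labels do not state, so that p-values measure the spread between these samples.

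UDP-glucuronosyltransferases (UGTs) of the endoplasmic reticulum move glucuronic acid from UDP-glucuronic acid to bilirubin, steroids, bile acids and drugs. Cytosolic sulfotransferases (SULTs) move sulfate from the donor PAPS to phenols, steroids and bile acids, and glutathione S-transferases (GSTs) join glutathione to electrophiles such as products of lipid peroxidation. Hepatocytes are rich in all of these enzymes, and the conjugates leave the cell through export pumps into bile or blood.

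Promoter sequences are shown first for the Ugt2b genes, because 5 of these 7 neighbours on chromosome 5 were lower in tumour while 2 were nearly absent from both tissues. RefSeq promoter sequences of build GRCm38.p6 (250 bases before and 50 after the transcription start) were found for 53 of the 61 members, 64 promoters in all. Each line gives the last 100 bases before the start, 5′ to 3′ on the strand of the gene, and capitals mark GTTANANNTTAAC, the 13-base window best conserved over the 7 promoters (N where they differ).
Ugt2b1 (chr5:86926504-86926603, minus strand): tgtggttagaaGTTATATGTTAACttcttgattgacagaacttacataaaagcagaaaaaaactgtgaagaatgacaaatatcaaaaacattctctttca
Ugt2b34 (chr5:86906938-86907037, minus strand): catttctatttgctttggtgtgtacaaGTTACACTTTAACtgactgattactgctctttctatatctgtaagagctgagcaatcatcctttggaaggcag
Ugt2b35 (chr5:87000760-87000859, plus strand): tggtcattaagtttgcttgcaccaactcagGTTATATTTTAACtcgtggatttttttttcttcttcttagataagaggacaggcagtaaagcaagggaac
Ugt2b36 (chr5:87092556-87092655, minus strand): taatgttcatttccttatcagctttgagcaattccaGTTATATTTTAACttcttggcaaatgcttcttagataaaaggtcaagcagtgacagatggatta
Ugt2b5 (chr5:87140341-87140440, minus strand): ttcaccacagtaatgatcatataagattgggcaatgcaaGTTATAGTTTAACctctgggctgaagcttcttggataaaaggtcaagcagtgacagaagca
Ugt2b37 (chr5:87254789-87254888, minus strand): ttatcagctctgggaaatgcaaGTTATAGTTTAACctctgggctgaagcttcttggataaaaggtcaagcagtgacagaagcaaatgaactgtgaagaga
Ugt2b38 (chr5:87424204-87424303, minus strand): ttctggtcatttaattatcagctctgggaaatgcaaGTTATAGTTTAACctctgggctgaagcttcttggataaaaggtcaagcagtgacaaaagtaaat

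The marked letters were found in the promoters of 7 of 7 Ugt2b members and in that of Ugt3a1, and in 30 of the 32851 promoters of the table (0.0913%), counting both strands. The window was derived from these same promoters, so its presence in all 7 Ugt2b genes is a description. In the Ugt2b promoters the first marked base lay between 61 (Ugt2b5) and 89 (Ugt2b1) bases before the start. The promoters of Ugt2b5 and Ugt2b37 shared a run of 72 identical bases, and those of Ugt2b5 and Ugt2b38 a run of 62, against 9 for Ugt2b5 and Ugt2b1. Levels per gene were far apart, but that of Ugt2b5 cannot be assigned to its printed promoter alone. As deposited, Ugt2b5 has 2 transcripts, and its span on the minus strand begins at base 87254788, where that of Ugt2b37 begins too. Per transcript length, Ugt2b5 averaged 337 ± 146 TPM (transcripts per 1e6 transcripts; SD, n = 14) in peritumour tissue, while Ugt2b37 averaged 0.218 TPM and Ugt2b38 0.168 TPM.

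Sult2a3 and Sult2a5 on chromosome 7 and Gsta3 on chromosome 1 are shown for comparison, since members of both families were lower in tumour too. Sult2a5 itself did not pass (edgeR adjusted p = 0.0672). No promoter was matched for Sult2a1, Sult2a2, Sult2a7, Ugt3a2 or Gsta4. Capitals mark GTTAAT, the half-site of the hepatocyte factor HNF1, on either strand, and in Gsta3 also TGACNNNGC, the core of the antioxidant response element bound by NRF2. The Sult2a lines hold 150 bases before the start and the Gsta3 line 200.
Sult2a3 (chr7:14123049-14123198, minus strand): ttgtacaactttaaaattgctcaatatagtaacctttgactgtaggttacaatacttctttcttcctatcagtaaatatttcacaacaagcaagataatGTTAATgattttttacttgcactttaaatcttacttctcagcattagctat
Sult2a5 (chr7:13623817-13623966, plus strand): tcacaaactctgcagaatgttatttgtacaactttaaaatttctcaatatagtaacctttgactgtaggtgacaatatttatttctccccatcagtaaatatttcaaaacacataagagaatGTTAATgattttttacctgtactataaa
Gsta3 (chr1:21240385-21240584, plus strand): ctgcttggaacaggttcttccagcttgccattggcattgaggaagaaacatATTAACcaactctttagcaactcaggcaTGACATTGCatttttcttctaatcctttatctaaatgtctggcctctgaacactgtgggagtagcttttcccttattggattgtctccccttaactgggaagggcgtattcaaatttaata

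GTTAAT was present in 6 of 17 promoters of the glucuronidation group, 7 of 19 of the sulfation group and 1 of 28 of the glutathione group, beside 7.1% of all promoters in the table. The promoters of Sult2a8, which are not printed, held 0 matches to it, though Sult2a8 was lower in tumour (log2 fold change -1.38, edgeR adjusted p = 0.00276). TGACNNNGC was present in none of the 17 and none of the 19 and in 3 of the 28 (Gsta3, Gstm5 and Gstm7), beside 12.4% of all promoters. The full HNF1 palindrome and the HNF4 direct repeat were found in 0 of 64 member promoters (0.00913% and 0.0944% of all). GTTAAT is contained in that palindrome, and no match to it overlaps the marked window in the 7 Ugt2b promoters. Of the other motifs searched, the TATA box TATAAA was in 13 member promoters, the STAT5 site TTCNNNGAA in 4, the xenobiotic response core TNGCGTG in 3 and the C/EBP palindrome TTGCGNAA in 1 of 64, and their shares of all promoters were 13.6%, 8.3%, 5.07% and 0.798%. These matches describe letters in a short window only. The marked Ugt2b window is as long as the HNF1 palindrome and shares its letters at both ends, but differs from it between them. The search for exact letters does not count such near matches. Whether the marked window is related to the HNF1 palindrome was not tested.

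Library totals lay between 14777567 and 17576921 estimated counts, and no 2 libraries of a group agreed within sampling noise. Albumin RNA was abundant in every group (means of 18500 to 27800 CPM, counts per 1e6 counts of a library), and Myc averaged 472 ± 151 CPM in Tu_F, 378 ± 144 in Pe_F (SD, n = 11 each), 446 ± 151 in Tu_M and 305 ± 31.1 in Pe_M (SD, n = 3 each). Pairs F2, F5 and F6 had high levels of granulocyte precursor markers: the 7 markers summed to 159 to 427 CPM in their libraries and to 5.7 to 284 CPM in all others, of which only tumour F4 exceeded 79.8 CPM. Peritumour library F5 had the lowest hepatocyte marker sum of its tissue (29000 CPM, range 29000 to 73500), and the glucuronidation and glutathione sums were lowest there and in its tumour. In bulk tissue, fewer cells of a type and less RNA per cell cannot be told apart.

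In tumour, summed glucuronidation RNA was below that of the paired peritumour tissue in every pair. In the sulfation group the genes that passed as lower were all of the Sult2a family, and in the glutathione group 17 of 20 tested genes did not pass. Summed over its 19 members, glucuronidation averaged 2040 ± 590 CPM in peritumour tissue and 1450 ± 515 CPM in tumour (SD, n = 14 each). The tumour was lower in 14 of 14 pairs, with ratios of tumour to peritumour from 0.431 (F6) through a median of 0.721 to 0.966 (M1). Sulfation summed to 416 ± 71.5 CPM in peritumour tissue and 320 ± 126 CPM in tumour and was lower in 11 of 14 pairs, with ratios from 0.329 (F5) through 0.806 to 1.33 (M1). The most abundant group, glutathione, summed to 6440 ± 1640 and 5860 ± 2190 CPM and was lower in 10 of 14 pairs, with ratios from 0.531 (F2) through 0.966 to 1.29 (F1). Peritumour and tumour ranges overlapped for all 3 groups, and glutathione ratios lay on both sides of 1. Set side by side, the glucuronidation ratio was below the glutathione ratio in 11 of 14 pairs (median quotient 0.758) and the sulfation ratio below it in 9 of 14 (0.824). Whether the groups differ was not tested.

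**Figure D1:**
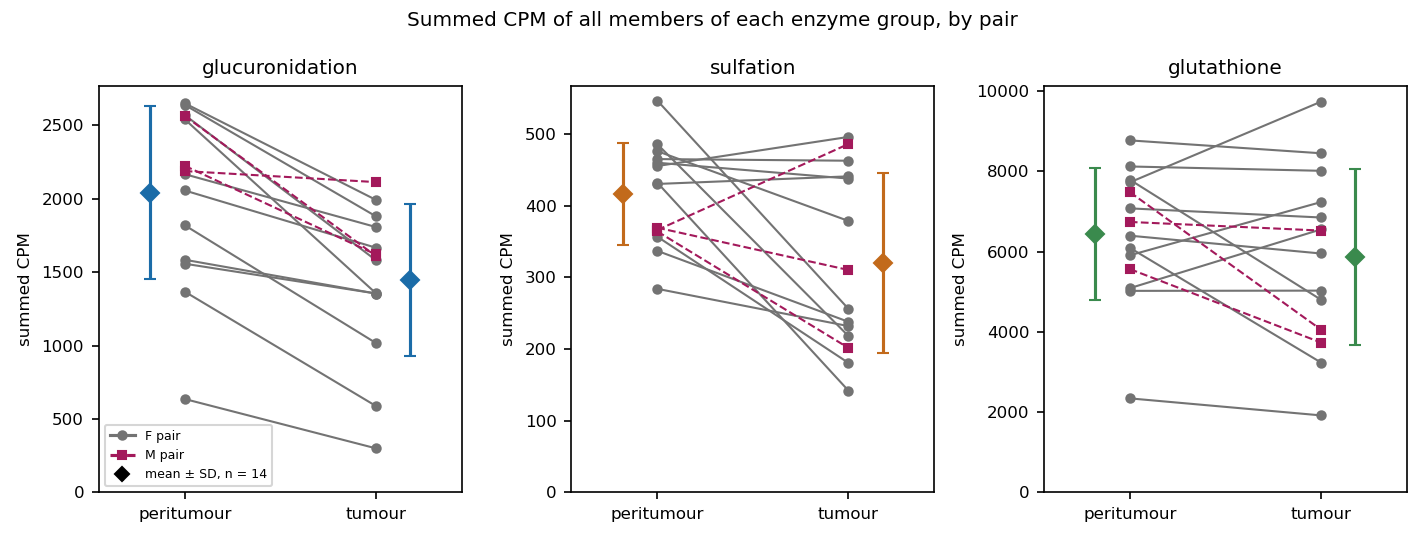
Summed CPM (linear axis) of all members of each enzyme group in peritumour and tumour tissue; each line joins the 2 libraries of a pair (grey circles F, purple squares M) and diamonds with bars give the mean and SD over 14 libraries. Glucuronidation falls along every line, while glutathione lines go both ways.

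Gene by gene, 50 members were abundant enough to be tested, and the other 11 reached at most 1.69 CPM in any library. With the pair as a block, 17 of the 50 were lower in tumour and 0 were higher at an adjusted p under 0.05 (edgeR's quasi-likelihood test, Benjamini-Hochberg adjustment over all 14117 genes tested). Over all genes 835 were lower (5.91%) and 789 higher (5.59%), 11.5% in all; scaled by library size alone the split was 677 lower and 1151 higher. By group, 9 of 16 tested glucuronidation genes, 5 of 14 sulfation genes and 3 of 20 glutathione genes were lower. Median log2 fold changes were -0.71, -0.77 and -0.24 in that order, beside -0.015 over all genes tested. Lower CPM in tumour in all 14 pairs was seen for 7 of the 50 members (0.786% of all genes tested), of which 5 belonged to glucuronidation, and in at least 13 pairs for 12 (2.48%). Higher CPM in at least 13 pairs was seen for 0 members, beside 3.44% of all genes for at least 13 pairs and 0.645% for all 14.

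**Figure D2:**
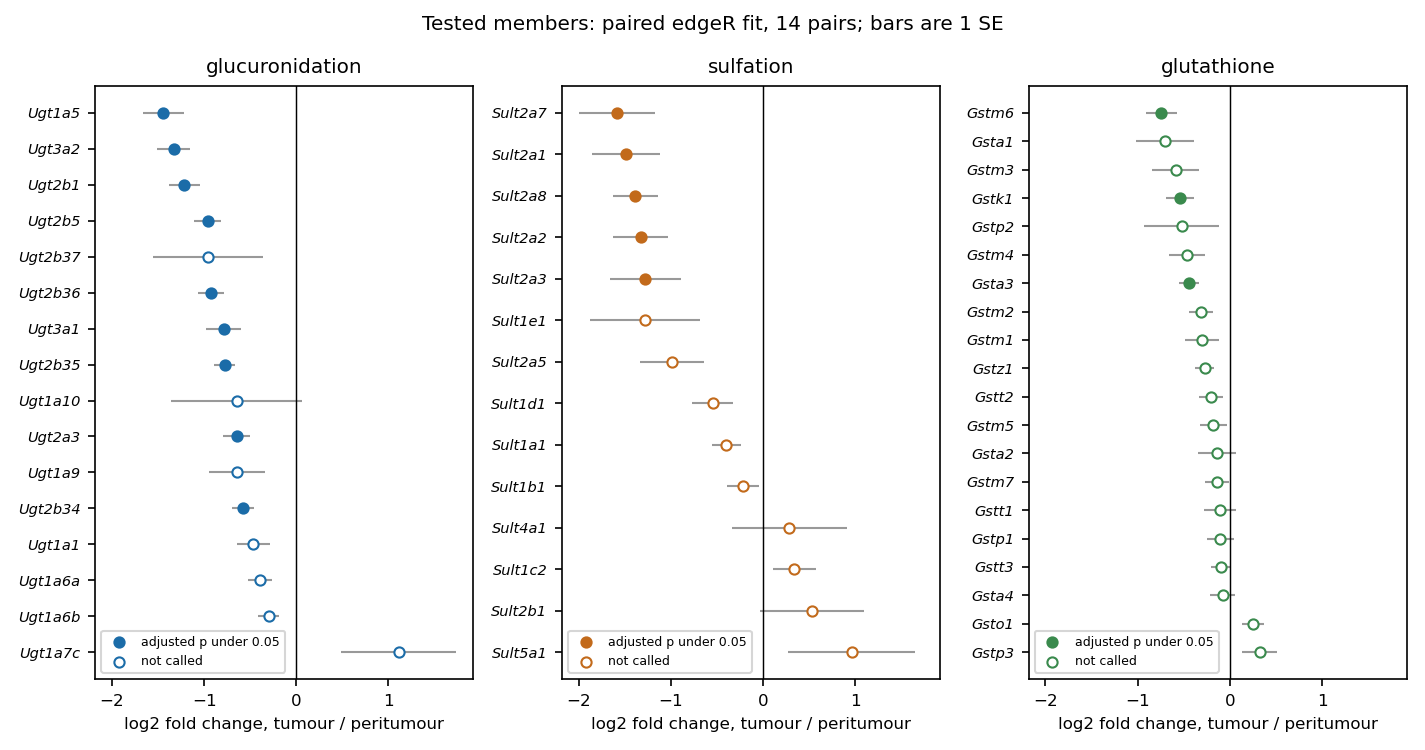
Log2 fold change of tumour over peritumour tissue (horizontal axis) for the 50 tested members, from the paired edgeR fit over 14 pairs; bars are 1 SE and filled points passed the adjusted threshold of 0.05. All 17 filled points lie below 0, and Ugt2b and Sult2a genes make up 10 of them.

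Every one of the 17 calls depends on the pairing. Without the pair as a block 0 members passed (edgeR, adjusted p from 0.0941 to 0.422 for the 17). In that fit 15 members had an unadjusted p under 0.05, beside 2672 of all 14117 genes. After adjustment 34 genes (0.241%) were lower and 114 (0.808%) higher, 1.05% in all, though all 17 fold changes remained below 0. The 6 pairs of the first style of title code alone gave 0 members and 0 genes (edgeR, 14 members and 1199 genes at an unadjusted p under 0.05), and the 8 pairs of the second style gave 14 members lower; in both, all 16 of the 17 that could be fitted had fold changes below 0.

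Ugt2b enzymes, which conjugate steroids, bile acids and many drugs, held most of the summed difference of the glucuronidation group. Their 7 genes lie in 1 cluster on chromosome 5, and 5 of the 6 tested were lower (edgeR, adjusted p from 0.000908 to 0.00678), Ugt2b37 being the sixth (adjusted p = 0.278). Summed Ugt2b RNA averaged 1110 CPM in peritumour tissue and 711 CPM in tumour, lower in 14 of 14 pairs with a median ratio of 0.623. Ugt2b5, in peritumour tissue the UGT with the highest level per transcript length, had 67.2, 393 and 664 CPM (lowest, median and highest of 14) there and 16.4, 217 and 485 CPM in tumour. The ranges overlapped, pair F5 gave the lowest value in each tissue, and the tumour was lower in every pair. Its log2 fold change was -0.96 ± 0.15 (SE; edgeR adjusted p = 0.00159), and 41.7% of the 50-base windows of its longest transcript recur in another member, mostly Ugt2b38, so some of its counts were apportioned. Ugt2b1 shares no such window and had 7.86, 65.8 and 102 CPM in peritumour tissue against 1.92, 21.9 and 78.4 CPM in tumour. It was lower in 13 of 14 pairs, M2 being the exception, with a log2 fold change of -1.22 ± 0.17 (edgeR adjusted p = 0.000908). Ugt2b36 had 28.3, 225 and 296 CPM against 11.4, 102 and 275 CPM and was lower in 14 of 14 pairs (-0.93 ± 0.14, edgeR adjusted p = 0.00119). In pair M1 the difference of log2 CPM was -0.04 for Ugt2b5, -0.08 for Ugt2b36 and -0.21 for Ugt2b1. Ugt2b35 (-0.78, edgeR adjusted p = 0.00117) and Ugt2b34 (-0.58, adjusted p = 0.00678) were lower as well. In 7 pairs all 6 tested Ugt2b genes were lower at once. In F2, F5, F6, F8 and M3 the only exception was Ugt2b37, which averaged 0.242 CPM in peritumour tissue and 0.115 CPM in tumour. In M1 the exceptions were Ugt2b37 and Ugt2b34, and in M2 Ugt2b1.

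The Ugt3a enzymes, counted here with glucuronidation by their symbols, use other UDP sugars than glucuronic acid, and both genes were lower. They were lower together in 13 of 14 pairs, F5 being the exception. Ugt3a2 had 3.64, 41.9 and 103 CPM in peritumour tissue and 1.98, 18.3 and 59.4 CPM in tumour. Its ranges overlapped, yet the tumour was lower in 14 of 14 pairs (log2 fold change -1.33 ± 0.18, edgeR adjusted p = 0.000889), most in M2 (-2.84) and F7 (-2.61). Ugt3a1 (-0.79, edgeR adjusted p = 0.0159) and Ugt2a3 (-0.65, adjusted p = 0.0133) complete the 9 glucuronidation genes that were lower; the call of Ugt3a1 was lost in the F pairs alone and in the second code style alone (-0.665, adjusted p = 0.142).

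Ugt1a isoforms arise from 1 locus on chromosome 1 in which each first exon joins a shared set of later exons, and at least 58.2% of the windows of each isoform recur in another, so levels of single isoforms rest on how the counts were apportioned. Only Ugt1a5 of the 7 tested was lower. It had 0.812, 8.5 and 70.2 CPM in peritumour tissue and 0.00874, 3.27 and 42.2 CPM in tumour, with the highest value of each tissue in pair F8. Its log2 fold change was -1.44 ± 0.22 (edgeR adjusted p = 0.00157), and it was lower in 14 of 14 pairs. Ugt1a1, the enzyme that conjugates bilirubin, had 167, 478 and 825 CPM against 70.3, 376 and 843 CPM and did not pass (-0.47 ± 0.18, edgeR adjusted p = 0.0961). It was lower in 11 of 14 pairs, and in F11 tumour exceeded peritumour by 0.68 on the log2 scale while in F6 the difference was -2.02. Per transcript length Ugt2b5 led the group in peritumour tissue, ahead of Ugt1a1 at 249 ± 92.2 TPM; in tumour Ugt1a1 (198 ± 97.2 TPM) and Ugt2b5 (197 ± 113 TPM) differed by less than their SD. The other 5 tested isoforms did not pass (log2 fold changes from -0.65 to 1.11).

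**Figure D3:**
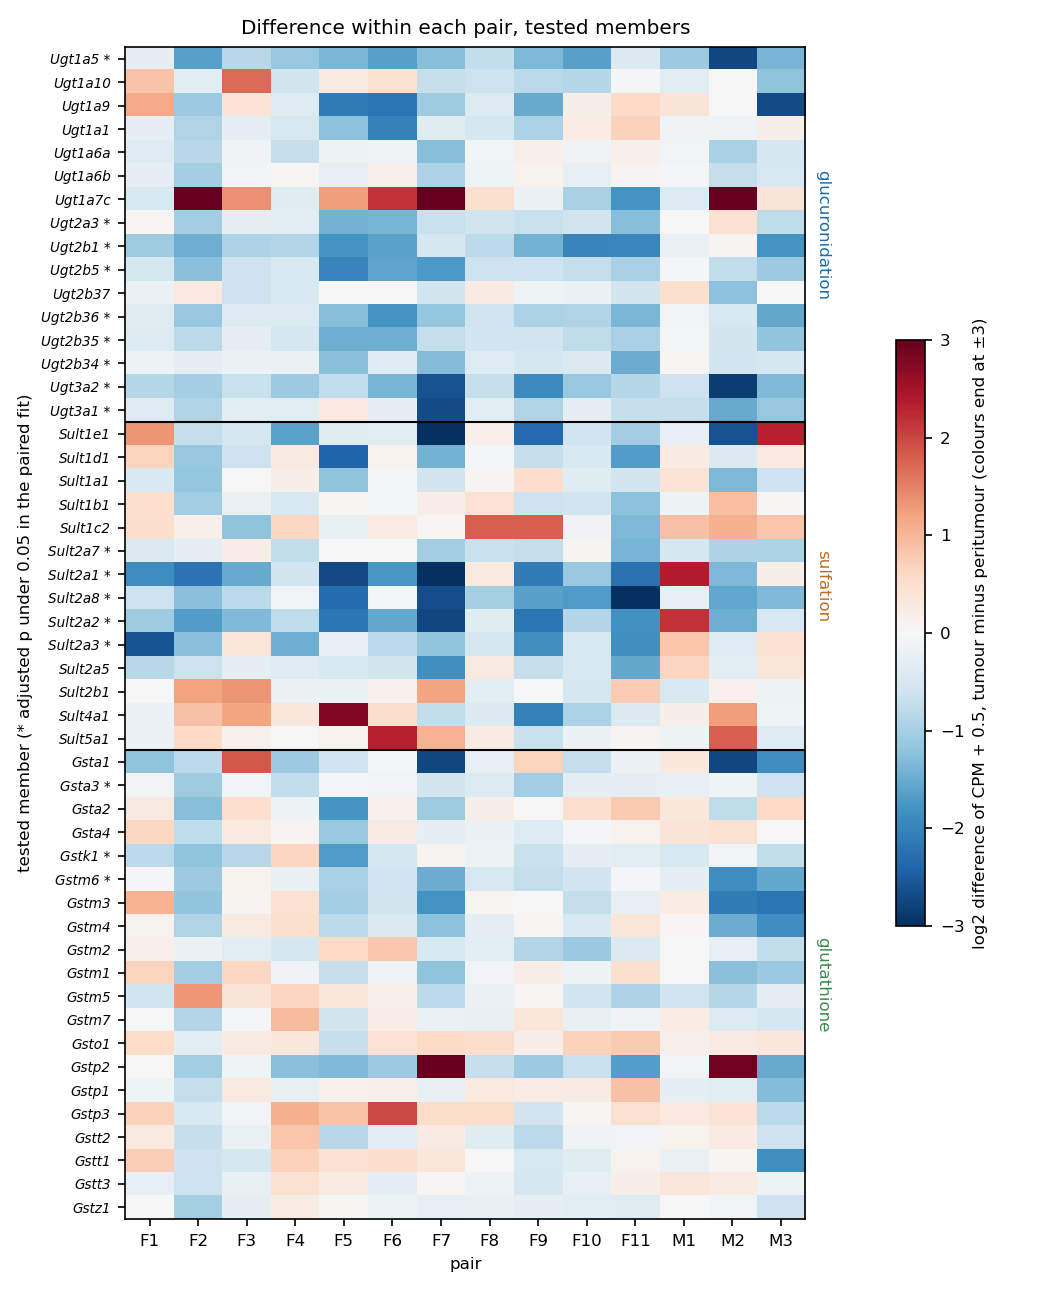
Difference of log2(CPM + 0.5) between tumour and peritumour tissue in each of the 14 pairs (columns) for the 50 tested members (lines, grouped by enzyme group and family); blue is lower in tumour, colours end at 3 on either side, and asterisks mark an adjusted p under 0.05. Ugt2b and Ugt3a lines are blue nearly throughout, and Sult2a1 and Sult2a2 turn red in M1. Ugt1a7c is deepest red in F2, F7 and M2, and Gstp2 in F7 and M2.

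The 5 sulfation genes that passed as lower are all Sult2a genes, hydroxysteroid sulfotransferases that act on dehydroepiandrosterone and bile acids. Of 6 tested, 5 were lower (edgeR, adjusted p from 0.00276 to 0.0387). Of 5 Sult1 genes 0 passed, though 4 had fold changes below 0 and 3 an unadjusted edgeR p under 0.05. Whether the 2 families differ was not tested. Summed Sult2a RNA averaged 91.1 CPM in peritumour tissue and 38.9 CPM in tumour and was lower in 13 of 14 pairs (median ratio 0.363). Sult2a8, a bile acid sulfotransferase of mouse liver, had 4.37, 30.2 and 105 CPM against 1.54, 9.78 and 99.3 CPM. Both highest values came from pair F4, the ranges overlapped, and the tumour was lower in 14 of 14 pairs, with log2 differences from -0.03 (F6) to -3.13 (F11). Its log2 fold change was -1.38 ± 0.24 (edgeR adjusted p = 0.00276), and none of its windows recurs in another member.

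Sult2a1 and Sult2a2 were both lower; 33.2% and 62.1% of their windows recur in other members. Sult2a1 had 1.76, 18.8 and 79.1 CPM in peritumour tissue and 0.383, 8.74 and 15.6 CPM in tumour, and Sult2a2 had 2.66, 29.5 and 59.9 CPM against 0.638, 9.59 and 22.5 CPM. The ranges overlapped, and the highest tumour values, both in M1, stayed below the F peritumour medians. Sult2a1 was lower in 11 of 14 pairs (-1.49 ± 0.37, edgeR adjusted p = 0.0182) and Sult2a2 in 13 of 14 (-1.33 ± 0.30, adjusted p = 0.0116). Pair M1 went the other way for both, by 2.35 and 2.17 on the log2 scale, and F8 (0.29) and M3 (0.17) did so for Sult2a1. By letter, Sult2a1 was lower in 10 of 11 F pairs and 1 of 3 M pairs (mean log2 differences -1.71 and 0.39), Sult2a2 in 11 and 2 (-1.49 and 0.07), Sult2a3 in 10 and 1 (-1.08 and 0.30) and Sult2a5 in 10 and 1 (-0.675 and 0.22). Sult2a8 was lower in all 11 F pairs and all 3 M pairs (-1.39 and -1.04). Sult2a3, a low-level member (means of 1.73 and 0.609 CPM), had 0.241, 1.51 and 7.67 CPM against 0.128, 0.462 and 1.41 CPM and a log2 fold change of -1.28 ± 0.38 (edgeR adjusted p = 0.0387). Without F pairs 2, 5 and 6 these 3 did not pass: the fold changes were -1.16 for Sult2a1, -1.11 for Sult2a2 and -1.23 for Sult2a3, with edgeR adjusted p of 0.088, 0.0537 and 0.0685. The call of Sult2a3 was also lost in 10 of 14 fits that left out 1 pair each. Sult2a7, with means below 1 CPM, completes the 5 Sult2a genes that were lower (-1.58, edgeR adjusted p = 0.021).

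The phenol sulfotransferase Sult1a1 carried most of the sulfation RNA per transcript length, 54.5% of the group's TPM in peritumour tissue and 61.1% in tumour. It had 139, 200 and 273 CPM in peritumour tissue and 71.4, 144 and 349 CPM in tumour, so that tumours spread on both sides of the peritumour range. The fold change was -0.40 ± 0.16 (log2; edgeR adjusted p = 0.111), lower in 9 of 14 pairs. Sult1e1, which sulfates oestrogens, was at a low level with 0.325, 1.31 and 5.21 CPM against 0, 0.337 and 9.79 CPM. It was lower in 11 of 14 pairs without passing (-1.28 ± 0.60, edgeR adjusted p = 0.164), and the highest value came from the tumour of M3. The other 3 Sult1 genes and Sult2b1, Sult4a1 and Sult5a1 did not pass either, with log2 fold changes from -0.55 to 0.96, nor did Sult2a5 (-0.99, edgeR adjusted p = 0.0672). DESeq2 called Sult1d1, Sult1e1 and Sult2a5 lower, and Ugt1a1 and Ugt1a6a of the glucuronidation group, for 22 members in all.

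Of the glutathione transferases most did not pass. Cytosolic alpha, mu, pi and theta classes, the omega and zeta enzymes and the mitochondrial kappa enzyme were all present, and 3 of 20 tested genes were lower. Gsta3, an alpha-class enzyme abundant in mouse liver, had 204, 775 and 944 CPM in peritumour tissue and 194, 531 and 790 CPM in tumour. The ranges overlapped almost fully, but the tumour was lower in 14 of 14 pairs, with log2 differences from -0.07 in F5 to -1.08 in F2. The log2 fold change was -0.44 ± 0.11 (edgeR adjusted p = 0.0192). Gstm6, a mu-class enzyme, had 5.06, 31.2 and 69.6 CPM against 2.33, 19.2 and 53.5 CPM and was lower in 13 of 14 pairs (-0.74 ± 0.17, edgeR adjusted p = 0.0126). Gstk1, the kappa enzyme of mitochondria and peroxisomes, had 25.3, 85.9 and 118 CPM against 7.46, 65.7 and 125 CPM (-0.54 ± 0.15, edgeR adjusted p = 0.0317). Its highest tumour value came from F4, where the difference was 0.63, and its call was lost in 7 of 14 fits without 1 pair and without F pairs 2, 5 and 6 (-0.33, adjusted p = 0.0753).

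The 2 transferases with the most RNA per transcript length did not pass. Gstm1, the main mu-class enzyme, averaged 3420 ± 1070 TPM in peritumour tissue and 3050 ± 1450 TPM in tumour (SD, n = 14 each). In CPM it had 624, 2610 and 3790 against 383, 2510 and 3830, lower in 9 of 14 pairs (log2 fold change -0.30 ± 0.19, edgeR adjusted p = 0.298). Gstp1, the pi-class enzyme known as a marker of preneoplastic liver foci in rats, averaged 2870 ± 852 TPM and 2750 ± 1030 TPM. Its CPM were 437, 1060 and 1790 in peritumour tissue and 480, 988 and 2250 in tumour, lower in 7 of 14 pairs (-0.10 ± 0.15, edgeR adjusted p = 0.684), and 62.3% of its windows recur in Gstp2. Pair differences of log2 CPM ran from -1.29 in M3 to 0.88 in F11, and the fold change turned positive in the F pairs alone (0.043). Gsta4, which acts on the lipid aldehyde hydroxynonenal, had 83.8, 118 and 193 CPM against 42.8, 126 and 251 CPM (-0.08 ± 0.14, edgeR adjusted p = 0.749), and its sign turned without F pairs 2, 5 and 6 (0.095). Gstz1, maleylacetoacetate isomerase of tyrosine breakdown, had 323, 466 and 576 CPM against 233, 397 and 600 CPM and was lower in 11 of 14 pairs without passing (-0.27 ± 0.10, edgeR adjusted p = 0.0943). The remaining 13 tested genes had log2 fold changes from -0.71 to 0.32. Of these, Gstm2 was called lower without F pairs 2, 5 and 6 (-0.45, edgeR adjusted p = 0.0163, against -0.31 and 0.131 over all pairs). Gsto1, singled out after its values were seen, was the 1 member higher in at least 12 pairs (8.2% of all genes tested), with 0.25 ± 0.12 (edgeR adjusted p = 0.173) over all pairs and 0.42 (adjusted p = 0.00932) without F pairs 2, 5 and 6.

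**Figure D4:**
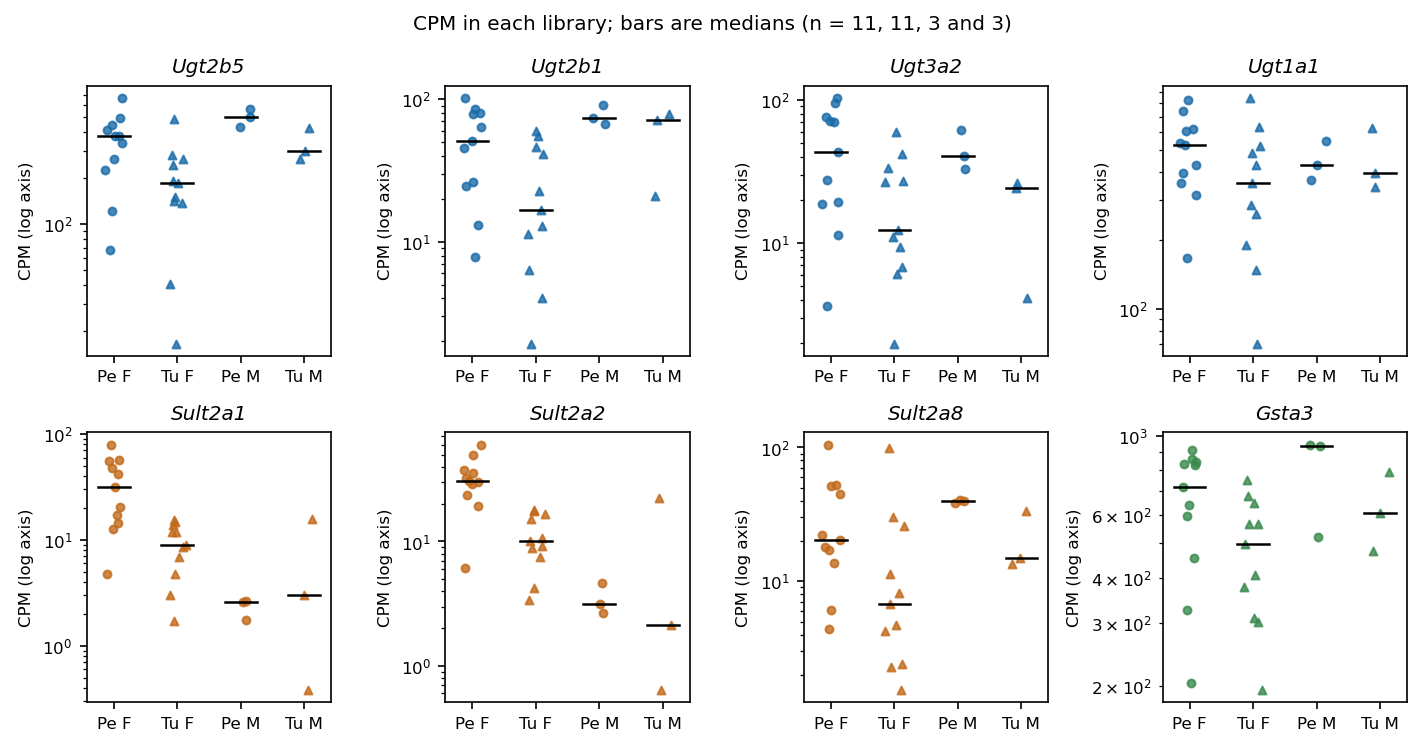
CPM of 8 members in each library (log axes, a separate scale in each panel) for the groups Pe_F and Tu_F (n = 11 each) and Pe_M and Tu_M (n = 3 each); points are libraries, circles peritumour and triangles tumour, and bars are medians. Sult2a1 and Sult2a2 are lower in the 3 Pe_M libraries than in every Pe_F library, and the Ugt genes of F tumours spread below those of F peritumour tissue.

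Genes that feed or follow the 3 reactions were read from fixed lists, chosen like the members with earlier results of these data known. Over all genes tested 5.91% were lower and 5.59% higher, the shares to set beside the list counts here and the marker counts below. Glucuronidation draws on Ugdh, which makes UDP-glucuronic acid. Ugdh was 1 of 4 supply genes to pass, averaging 405 ± 118 CPM in peritumour tissue and 295 ± 127 CPM in tumour (SD, n = 14 each; -0.58 ± 0.15, edgeR adjusted p = 0.0219). Of 10 sulfate donor genes 3 were lower, namely the sulfite oxidase Suox (-0.70), the sulfate transporter Slc26a1 (-0.60) and the PAPS synthase Papss2 (-0.58 ± 0.17, edgeR adjusted p = 0.0377). The sulfate transporter Slc13a4 was higher (3.31 ± 0.94, edgeR adjusted p = 0.029), at 0.148 ± 0.164 CPM in peritumour tissue and 3.83 ± 6.61 CPM in tumour. Of 10 glutathione supply genes 3 were lower, among them Gclc, the catalytic subunit of the rate-limiting ligase (-0.44 ± 0.12, edgeR adjusted p = 0.0249), and Ggct (-0.42).

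Outside the 3 families, Mgst1, a membrane-bound glutathione transferase, averaged 1390 ± 481 CPM in peritumour tissue and 825 ± 300 CPM in tumour and was lower in 14 of 14 pairs (-0.79 ± 0.10, edgeR adjusted p = 0.000713), the 1 of 9 other glutathione transferases to pass. Among 14 other conjugation genes 3 were lower, with Glyat (-0.84) and Baat (-0.83), which join glycine or taurine to acyl groups, the most certain. Of 5 deconjugation genes 0 passed in edgeR's test, and 1 had an unadjusted p under 0.05. Of 12 NRF2 targets outside the transferases 1 passed, Srxn1 (-0.65, lower), while Nqo1 had -0.58 ± 0.21 (edgeR adjusted p = 0.0832). Among 18 regulators the nuclear receptors Nr1i3 (CAR, -0.94 ± 0.18, edgeR adjusted p = 0.00509) and Nr1h4 (FXR, -0.34 ± 0.10) were lower, and Nfe2l2, which encodes NRF2, had -0.25 ± 0.09 (adjusted p = 0.0703). The canalicular pump Abcc2 was lower (-0.44 ± 0.11, edgeR adjusted p = 0.0212), 1 of 5 export genes. The counts for other glutathione transferases, NRF2 targets and regulators lie near the 11.5% of all genes that passed in either direction. They are no result about those lists.

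Markers of liver cells moved in the same comparison. Of 8 pericentral hepatocyte markers 7 were lower, with summed levels of 673 to 3810 CPM in peritumour tissue and 439 to 2180 CPM in tumour. Of 8 periportal markers 3 were lower (3840 to 7800 against 2390 to 10900 CPM), and of 10 general hepatocyte markers 3 (29000 to 73500 against 26700 to 61600 CPM). Kupffer cell markers were lower in 6 of 7 (200 to 590 against 116 to 707 CPM), stellate cell markers in 3 of 6 (69.9 to 184 against 52.2 to 141 CPM) and sinusoidal endothelial markers in 2 of 6 (lowest sums 128 against 70.4 CPM, medians 187 against 147). Intestinal epithelial markers were higher in 2 of 5 (70.2 to 203 against 98.6 to 1220 CPM) and cholangiocyte markers in 1 of 7 (59.5 to 344 against 56.6 to 2030 CPM). No marker passed for T cells, granulocyte precursors or erythroid precursors (edgeR, 0 of 5, 0 of 7 and 0 of 7, with 0 in all at an unadjusted p under 0.05). No defining marker of these lists was at 0 in all libraries. The part of these shifts in the fall of the conjugation genes was not tested. Leaving out F pairs 2, 5 and 6, which had high granulocyte precursor markers, kept 13 of the 17 member calls. That fit does not test the shifts above, since the pericentral sum was lower in tumour in 14 of 14 pairs.

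Between the letters, 0 members passed in either tissue. In peritumour tissue 4 of 13694 genes passed (0.0292%, edgeR with title code style as a covariate), the Y-linked Ddx3y, Eif2s3y, Kdm5d and Uty, all higher in M. Beside 296 of all 13694 genes, 7 of 48 tested members had an unadjusted p under 0.05. Of these, Sult2a1 and Sult2a2 were far apart: Sult2a1 had 2.65, 1.76 and 2.61 CPM in the 3 Pe_M libraries against 4.79, 31.4 and 79.1 CPM (lowest, median and highest of 11) in Pe_F, and Sult2a2 had 4.61, 2.66 and 3.16 CPM against 6.08, 30.5 and 59.9 CPM. The letters did not overlap for either gene. The log2 fold change of M over F was -4.09 ± 0.86 for Sult2a1 (edgeR adjusted p = 0.572) and -3.04 ± 0.60 for Sult2a2 (adjusted p = 0.417). DESeq2 called both (adjusted p = 1.45e-05 and 8.32e-05), and edgeR called Sult2a2 among the 3 against 3 libraries of the first code style alone (adjusted p = 0.00503). All Pe_M libraries have the first code style, so only those 3 Pe_F libraries meet them within a style. Sult2a3 had -3.08 ± 0.79 (edgeR adjusted p = 1), with 0.568, 0.316 and 0.241 CPM in Pe_M against 0.584, 1.58 and 7.67 CPM in Pe_F. The highest of these is F1, and without F1 the fold change was -1.56.

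In tumour tissue the same 4 Y-linked genes passed of 13819 (0.0289%, edgeR). Beside 1083 of all 13819 genes, 2 of 47 tested members had an unadjusted p under 0.05. Sult2a1 had 15.6, 0.383 and 3.01 CPM in the 3 Tu_M libraries and 1.73 to 15.6 CPM in Tu_F, overlapping ranges (-0.61 ± 0.95, edgeR adjusted p = 0.934). That value moved with single libraries: it was -2.41 without M1, -0.27 without M3, -0.09 without F1 and -0.05 without M2, with no call in any of these fits. The tumour effect itself, tested as a difference between M and F pairs, passed for 0 of 14117 genes (edgeR and DESeq2). In edgeR 4 of 50 members had an unadjusted p under 0.05, beside 1001 of all 14117 genes. For Sult2a1 that difference was 2.40 ± 0.82 on the log2 scale, for Sult2a2 1.70 ± 0.72 and for Sult2a3 2.23 ± 0.85 (edgeR adjusted p = 0.689 for each). Without M1 the difference was 1.10 for Sult2a1, 0.30 for Sult2a2 and 1.66 for Sult2a3, and without M2 it was 3.25, 2.54 and 2.83. Of the 9 glucuronidation genes that were lower, Ugt1a5, Ugt2b5, Ugt2b35, Ugt2b36 and Ugt3a2 were lower in all 14 pairs, and so in both letters by that count alone. Ugt2b1 and Ugt2b34 were each lower in 11 of 11 F pairs and 2 of 3 M pairs. Ugt3a1 was lower in 10 F pairs and 3 M pairs, and Ugt2a3 in 10 and 1.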

How the data were processed

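RNA-seq of 28 libraries (14 tumour, 14 peritumour) was analysed. The authors deposited, per the file headers, a read count, treated as an estimated count because it is not always whole, and a TPM value per gene and library. Per the submitters' processing notes the tools were RSEM 1.2.12, Bowtie2 2.2.5, DESeq2 1.4.5 and HISAT2 2.0.4. Genome build and strandedness of counting are not given in the sources used here; overlapping and antisense genes cannot be told apart. Of the values 8.06% were not whole (tolerance 0.001), and counts were rounded to whole numbers. The table's 1 line with no gene ID was dropped, and 26 symbols that had turned into dates were restored from their gene IDs (18060 of 18182 IDs were in the reference table).

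Counts were tested in R 4.3.3 with edgeR 4.0.16 (filterByExpr, TMM scaling, glmQLFit and glmQLFTest, Benjamini-Hochberg adjustment, threshold 0.05; limma 3.58.1 loaded with it), with the pair as a block for tumour against peritumour tissue (14117 genes) and code style as a covariate between letters; code style is only the form of the title code. The pair comes from the code shared in the titles. Deviations from the mean of each group and code style together correlated at 0.13 to 0.659 within pairs, against a median of -0.0177 between libraries of different pairs. For 12 of 14 tumours the highest correlation was with the own pair. CPM was computed from the estimated counts and library totals, and pair differences as log2(CPM + 0.5). The fits were tested on simulated data with the same dispersion for all genes and no pair effect, which cannot test the use of the pair as a block. DESeq2 1.42.0, other scalings and filters, the fit without the block, subsets and leaving out each pair were alternatives.

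Members, gene lists and the rule for members described in full were chosen with earlier results of these data known. The rule took in each enzyme group up to 5 called members with the largest fall and a mean of at least 1 CPM, members called between the letters, and 10 set by name (Ugt1a1, Ugt2b1, Sult1a1, Sult2a8, Sult1e1, Gsta3, Gsta4, Gstm1, Gstp1, Gstz1); from each gene list it took up to 2 per direction, plus Ugdh, Papss2, Gclc, Nqo1 and Nfe2l2; other members are named to complete a count, after their values were seen. Promoters (RefSeq, GRCm38.p6) were searched on both strands, and shared sequence is the share of 50-base windows of a member's longest coding transcript found in another member.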

Additional observations from a re-analysis of the deposited data

How the results depend on the processing

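The 17 member calls rest on the replicate block of 14 pairs. Without the replicate block 34 genes were lower and 114 higher, and 0 members passed (edgeR), though no fold change of the 17 turned positive. The 6 pairs of the first code style alone gave 0 genes lower, 0 higher and 0 members, and the 8 pairs of the second style 534 lower and 447 higher. With 1 pair left out at a time, genes lower ranged from 519 (without F8) to 947 (without F2), genes higher from 380 to 1009, members lower from 15 to 18 and members higher from 0 to 1. Without F pairs 2, 5 and 6, chosen after seeing the data, 1 member was higher. Signs turned for 2 of the 19 members described in full, neither of which passed, and without the block also for Gsta2 (-0.141 to 0.065) and Gstp2 (-0.523 to 0.377). Gsta4 moved from -0.076 to 0.01 without the block, 0.095 without F pairs 2, 5 and 6 and 0.097 in the first style, and from -0.134 to 0.011 with 1 pair left out. Gstp1 moved from -0.103 to 0.043 in the F pairs alone and 0.184 in the second style, and from -0.188 to 0.001 with 1 pair left out. Between letters DESeq2 called 8 genes and 2 members in peritumour tissue and 55 genes in tumour, and the first style alone called 1 member in peritumour tissue; with 1 library left out, 1 to 4 genes passed in tumour. Library size alone in place of TMM moved the median M over F difference of all genes in tumour from -0.021 to -0.157. Depth limits the 11 members below the filter, for which the filtered fits give no value.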

Other observations

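A pair of members that did not pass stood high in the same tumour libraries; they were singled out after their values were seen. Ugt1a7c, an isoform of the Ugt1a locus, was at 52.6 CPM in tumour F7, 41.0 in tumour M2 and 23.5 in tumour F2, and at most 4.20 CPM in every other tumour. Gstp2, the near copy of Gstp1, was at 56.7 CPM in tumour F7 and 73.0 in tumour M2, and at most 6.37 CPM in every other tumour. Both levels rest on how counts were apportioned, since 69.3% of the windows of Ugt1a7c recur in another member and 64.3% of those of Gstp2 in Gstp1. The fold change of Ugt1a7c over all pairs was 1.11 ± 0.62 (log2; edgeR adjusted p = 0.25). That of Gstp2 was -0.52 ± 0.41 (adjusted p = 0.417): it was lower in tumour in 12 of 14 pairs, and its peritumour values (1.54 to 15.9 CPM) reached above those of the other 12 tumours. Intestinal epithelial markers summed to 564 CPM in tumour F7 and 605 CPM in tumour M2, within the range of all tumours (98.6 to 1220 CPM). Sult2a1 was at 1.74 CPM in tumour F7, the lowest F tumour, and at 0.383 CPM in tumour M2, the lowest of all tumours.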
